A study of Mus musculus with 16 samples.

Results

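The genes described are 10 readouts and brakes of ERK signalling in mouse liver, namely Fos, Jun, Egr1, Myc, Ier3, Dusp1, Dusp6, Spry2, Spry4 and Spred1. They were taken by symbol. The array carried 22 probe sets annotated to one of these symbols alone, and for each gene the probe set with the highest mean signal over the 16 arrays was read. All 10 genes passed the filter on low signals and were among the 13575 genes tested.

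MET and EGFR are receptor tyrosine kinases that signal through RAS, RAF and MEK to the kinase ERK. Active ERK switches on immediate-early genes without new protein synthesis, among them the transcription factor genes Fos, Jun, Egr1 and Myc, and these transcripts are short-lived. The pathway also induces its own brakes, such as dual-specificity phosphatases, which remove phosphate from MAP kinases, and Sprouty and SPRED proteins, which act between the receptor and RAF. In liver, immediate-early transcripts are known to surge within hours of partial hepatectomy, an operation that takes out part of the organ and lets the rest regrow, and several respond to inflammatory signals as well.

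Liver RNA of 4 arms was sampled with a single expression array at each of days 0, 2, 7 and 14 from the operation, 16 arrays in all, so the first hours were not covered. MET_KO_canertinib livers lacked exon 16 of Met after tamoxifen-inducible deletion, and the mice were fed canertinib, which blocks kinases of the EGFR family, at an intended 80 mg/kg. MET_FLOX_canertinib mice were fed canertinib, MET_KO mice had the deletion without the drug, and MET_FLOX mice had neither. All 4 arms carry the genotype label Metff/ff:ERCre+/+ on a 129SV/C57BL/6 background, so the floxed Met alleles and the inducible Cre are common to every arm, and the deletion is not limited to hepatocytes by the label. Whether MET_FLOX mice received tamoxifen, the age of the mice, and whether an array holds 1 animal or a pool are not given in the sources used here. With no replicate array for an arm at a day, the days of an arm stood in for its replicates, and the arms for those of a day. The p-values thus measure only the spread left between these arrays. That spread includes any response particular to an arm at a day.

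Values are MAS5 signal intensities, scaled by the authors so that the trimmed mean of every array is 500, and log2 differences are on the scale of log2(signal + 16). The array medians fell into separate sets, of 156.4 to 188.7 on 6 arrays (MET_KO and MET_FLOX at days 0, 2 and 7) and of 244.0 to 265.1 on the other 10, so that day 14 is the only day at which arms with and without canertinib come from the same set. The Gapdh 3′ to 5′ signal ratio, a measure of RNA quality, was 0.95 to 2.24 on canertinib arrays and 0.765 to 0.869 on the others. All 8 hepatocyte markers (Alb, Ttr, Apoa1 and others) lay above the array median on every array. Met gave 982 to 2066 in the knockout arms and 1041 to 2014 in the flox arms, ranges that overlap almost throughout, and the position of its probe set relative to exon 16 is not given, so it does not check the deletion.

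The promoters of Fos, Jun, Ier3 and Dusp1, immediate-early genes with an entry in the promoter table used here, are shown so that letters matching the searched elements can be read beside the signals. Each runs from 250 bases before to 50 after the annotated start site, read 5′ to 3′ on the gene's own strand, from RefSeq on GRCm38.p6. Capitals mark letters that match a searched motif on either strand. They lie at chr12:85473640-85473939 on the plus strand for Fos, chr4:95052173-95052472 on the minus strand for Jun, chr17:35821463-35821762 on the plus strand for Ier3 and chr17:26508423-26508722 on the minus strand for Dusp1.
Fos: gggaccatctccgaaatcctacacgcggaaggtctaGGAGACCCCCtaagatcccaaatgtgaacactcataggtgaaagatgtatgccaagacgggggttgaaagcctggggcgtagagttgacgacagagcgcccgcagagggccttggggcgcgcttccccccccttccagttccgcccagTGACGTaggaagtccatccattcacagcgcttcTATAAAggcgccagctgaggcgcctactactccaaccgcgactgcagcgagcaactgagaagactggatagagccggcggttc
Jun: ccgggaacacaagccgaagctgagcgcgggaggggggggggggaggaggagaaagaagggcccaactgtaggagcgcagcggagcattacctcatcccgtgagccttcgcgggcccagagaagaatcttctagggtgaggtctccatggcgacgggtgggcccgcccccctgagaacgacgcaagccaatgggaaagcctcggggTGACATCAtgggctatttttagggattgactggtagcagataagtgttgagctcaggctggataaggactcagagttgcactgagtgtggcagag
Ier3: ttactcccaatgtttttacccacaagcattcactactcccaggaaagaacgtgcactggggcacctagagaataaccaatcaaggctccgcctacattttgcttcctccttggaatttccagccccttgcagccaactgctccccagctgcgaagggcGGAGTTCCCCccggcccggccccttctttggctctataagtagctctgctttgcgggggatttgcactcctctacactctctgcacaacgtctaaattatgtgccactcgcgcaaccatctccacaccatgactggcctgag
Dusp1: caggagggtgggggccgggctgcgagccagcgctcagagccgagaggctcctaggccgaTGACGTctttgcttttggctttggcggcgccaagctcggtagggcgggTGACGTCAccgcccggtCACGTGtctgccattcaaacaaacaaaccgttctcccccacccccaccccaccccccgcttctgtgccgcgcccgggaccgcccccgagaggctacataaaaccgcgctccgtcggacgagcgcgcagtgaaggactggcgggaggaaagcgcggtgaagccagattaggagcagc

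Counted from the start site, the Dusp1 promoter held the cAMP response element TGACGTCA at -143 to -136, which 1.79% of 32851 mouse promoters of this length hold. Its core TGACGT, which overlaps the full element, occurred again at -191 to -186 of Dusp1 and at -66 to -61 of Fos, against 7.51% of promoters. The Dusp1 promoter also held the E-box CACGTG, the core letters bound by MYC and related factors, at -126 to -121 (7.15% of promoters). Jun held TGACATCA, the variant element described for its own autoregulation, at -45 to -38 (3.62% of promoters). A kappa-B site was matched at -214 to -205 of Fos and at -92 to -83 of Ier3, against 4.51% of promoters, and Fos held the TATA box letters TATAAA at -33 to -28 (13.6% of promoters). The AP-1 letters TGAGTCA (5.2% of promoters), the EGR letters GCGNGGGCG (5.55%) and a CArG box (1.63%) were in none of the 7 promoters searched, those of Dusp6, Spry2 and Spred1 included. A match is a description of the letters in this window. Elements outside the window were not searched, nor were the promoters of Egr1, Myc and Spry4, so a missing match does not show that a gene lacks the element.

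Few of the genes differed between arms or days by the test applied to all genes. In limma fits with arm and day as terms, Spry4 was the only one of the 10 to pass a Benjamini-Hochberg adjusted p of 0.05 in any of 10 comparisons, with canertinib against without it. In that comparison 34.6% of all genes tested passed (24% higher and 10.6% lower), so 1 of 10 lies under the background. Of the called genes 69.3% were higher, against 40% with each array centred on its own median, where no member passed. The mean log2 differences of Spry2, Spry4 and Spred1 were above 0 at days 0, 2 and 7 and below 0 at day 14. Egr1 was higher at every day in MET_FLOX_canertinib than in MET_FLOX, just outside the threshold. The MET_KO_canertinib array at day 14 held the highest signal of Fos, Myc, Ier3 and Dusp1. In whole liver, fewer cells of a type and less RNA per cell cannot be told apart.

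**Figure D1:**
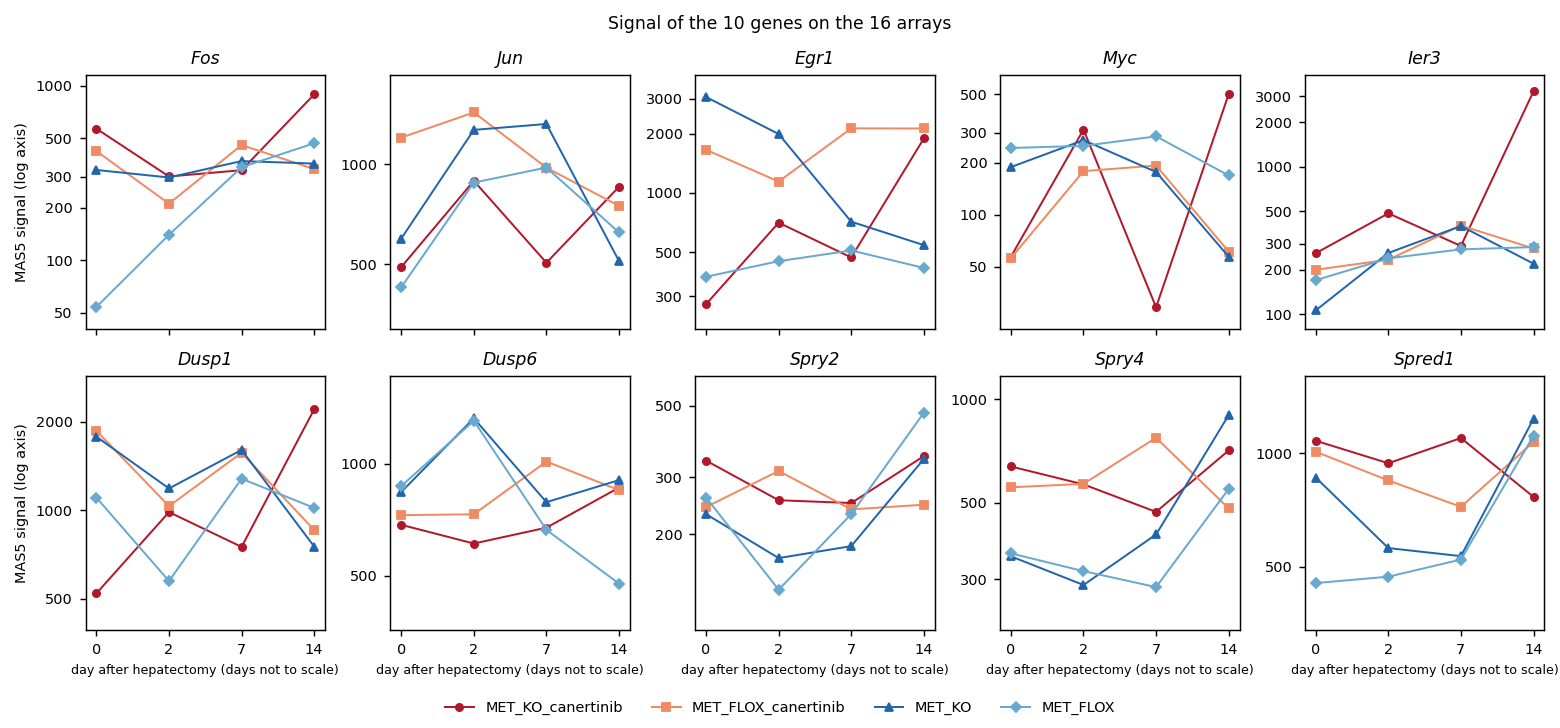
MAS5 signal (log axis) of each of the 10 genes on the 16 arrays against the day after hepatectomy (days not to scale), 1 point per array, with lines joining the arrays of an arm. Ier3 stands at 3248 in MET_KO_canertinib at day 14, Dusp6 at 1324 and 1304 in the arms without canertinib at day 2, and Spry4 lies lowest in MET_KO and MET_FLOX at days 0, 2 and 7.

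Fos encodes a partner of JUN in the AP-1 transcription factor. Its signal was 567, 302, 328 and 891 at days 0, 2, 7 and 14 in MET_KO_canertinib and 422, 211, 457 and 333 in MET_FLOX_canertinib. It was 329, 298, 370 and 358 in MET_KO, and 54, 140, 341 and 468 in MET_FLOX. The day 0 and day 2 arrays of MET_FLOX were the lowest of all 16, and the 3 other arms did not separate from each other. In MET_KO_canertinib against MET_FLOX the log2 difference was 1.23 (SE 0.44, limma adjusted p = 0.101), and without the day 0 array of MET_FLOX it was 0.65. Over both canertinib arms against both arms without it, the difference was 0.63 (95% interval -0.04 to 1.29, limma adjusted p = 0.126), and 0.32 after quantile normalization.

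Jun encodes the partner of FOS in AP-1 and contributes to hepatocyte proliferation after hepatectomy in mice. Its signal at days 0, 2, 7 and 14 was 491, 892, 506 and 856 in MET_KO_canertinib and 1203, 1432, 977 and 750 in MET_FLOX_canertinib. MET_KO gave 598, 1269, 1322 and 512, and MET_FLOX gave 427, 881, 978 and 624. In every arm day 2 was above day 0, by 0.84, 0.25, 1.07 and 1.02 on the log2 scale in the same order of arms. The mean difference of day 2 from day 0 was 0.79 (SE 0.28, 95% interval 0.19 to 1.40, limma adjusted p = 0.32), in a comparison where 0.413% of all genes passed, all 10 genes here staying outside. Another Jun probe set ran from 5 to 1180 and lay under its array's median on 7 of the 16 arrays. It gave a day 2 difference of 1.97 (1.38 for the mean over both), and with canertinib against without it gave -1.03, where the first probe set gave 0.12 (-0.08 with arrays centred on their medians).

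Egr1 encodes a zinc-finger transcription factor and is among the most direct ERK targets. It gave 273, 707, 471 and 1890 at days 0, 2, 7 and 14 in MET_KO_canertinib, and 1655, 1143, 2126 and 2123 in MET_FLOX_canertinib. In MET_KO it gave 3066, 1990, 715 and 544, and in MET_FLOX 376, 451, 511 and 417. Every MET_FLOX_canertinib array thus stood above every MET_FLOX array, a separation in the higher direction that 7.59% of all genes showed, while MET_KO was lower at each later day and MET_KO_canertinib highest at day 14. Egr1 was 3.82-fold higher in MET_FLOX_canertinib than in MET_FLOX, a log2 difference of 1.93 (SE 0.56, 95% interval 0.74 to 3.12, limma adjusted p = 0.0511), and 4 of 4 days agreed in direction at 2.09, 1.31, 2.02 and 2.30. This comparison called 6.79% of all genes and none of the 10, and over the alternatives the adjusted p of Egr1 ran from 0.0232 to 0.15. In the model with the array set the difference was 3.46 (adjusted p = 0.134), larger than at any of the 4 days. That model adds to the day 14 difference over both genotypes the way they differ over all days. Its value is thus not a difference seen at a day. In MET_KO_canertinib against MET_KO the Egr1 difference was -0.93 (SE 0.56, limma adjusted p = 0.258), with -3.41, -1.47, -0.59 and 1.77 at the 4 days. It turned to 0.61 in the model with the array set, a value built in the same way and not the 1.77 seen at day 14.

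The genotype by canertinib interaction, the difference between those effects, was -2.86 for Egr1 (SE 0.79, 95% interval -4.54 to -1.18, limma adjusted p = 0.664), negative at 4 of 4 days. Jun had an interaction of -0.95 (SE 0.40, 95% interval -1.81 to -0.10, limma adjusted p = 1), negative at 3 of 4 days and 0.47 at day 14. The interaction called 2 of all genes (0.0147%) and none of the 10. Estimates of the interaction are balanced over the sets of arrays and had the same value when the set was a term.

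Myc encodes the growth-promoting transcription factor, and its signals were low, above the array median on 8 of 16 arrays. It gave 57, 312, 29 and 501 at days 0, 2, 7 and 14 in MET_KO_canertinib, and 56, 179, 193 and 61 in MET_FLOX_canertinib. MET_KO gave 189, 271, 177 and 57, and MET_FLOX gave 244, 251, 285 and 169. Both canertinib arrays were below both others at day 0 (22.9% of all genes were), and day 2 was above day 0 in 4 of 4 arms, by 2.17, 1.44, 0.49 and 0.04. Neither difference passed, with canertinib against without it at -0.59 (SE 0.48, limma adjusted p = 0.353) and day 2 against day 0 at 1.03 (SE 0.68, adjusted p = 0.651). The canertinib difference of Myc turned to 0.77 in the model with the array set. Without the day 14 array of MET_KO_canertinib, Myc passed as lower with canertinib, as 1 of 3 members then called.

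**Figure D2:**
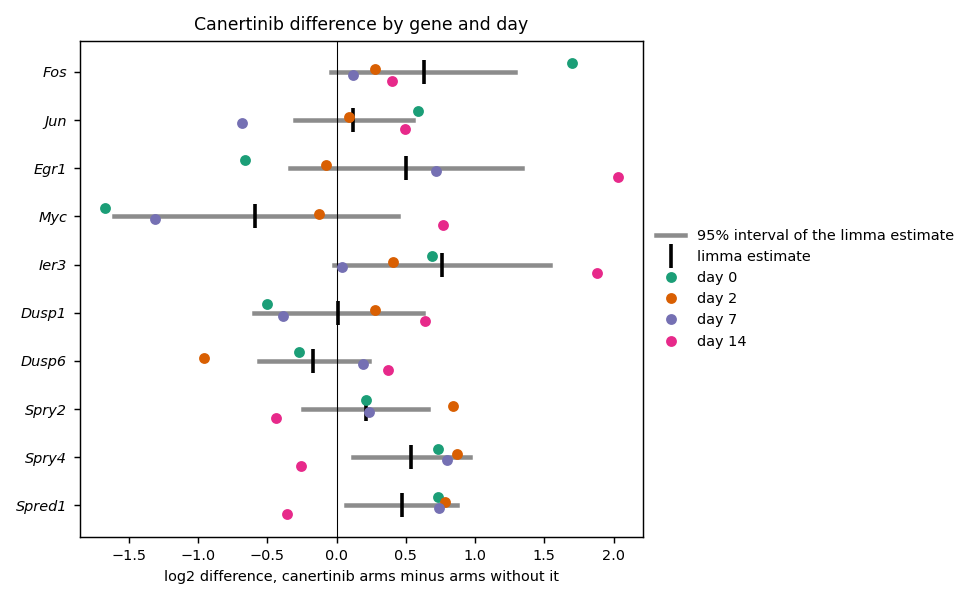
Log2 difference of canertinib arms minus arms without it for each gene, with a point for each day, a black bar for the limma estimate over the 4 days and a grey bar for its 95% interval. Spry4 and Spred1 stand between 0.73 and 0.87 at days 0, 2 and 7 and at -0.26 and -0.36 at day 14, while Egr1 and Ier3 reach 2.03 and 1.88 at day 14.

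Ier3, an immediate-early gene that affects cell survival and is induced by ERK and by NF-kappa-B, had the widest ratio of highest to lowest signal of the 10 genes, at 30.6. It gave 259, 483, 290 and 3248 at days 0, 2, 7 and 14 in MET_KO_canertinib. MET_FLOX_canertinib gave 200, 234, 399 and 279, MET_KO gave 106, 260, 396 and 220, and MET_FLOX gave 170, 239, 275 and 285. A single array thus stood far above the rest, which lay at 106 to 483. In MET_KO_canertinib against MET_KO the log2 difference was 1.35 (SE 0.52, limma adjusted p = 0.0963), in a comparison that called 8.34% of all genes and none of the 10, and it was 0.57 without the day 14 array of MET_KO_canertinib and 2.47 in the model with the array set. Against MET_FLOX it was 1.26 (SE 0.52, adjusted p = 0.136), and 0.48 without that array and 2.38 in the model with the array set. This comparison called 2.91% of all genes and none of the 10.

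Day 14 against day 0 over the 4 arms gave Ier3 a difference of 1.42 (SE 0.52, limma adjusted p = 0.221), above 0 in 4 of 4 arms, and 0.64 without the same array and 2.16 in the model with the array set. No member passed at day 14, where 0.081% of all genes did, or at day 7, where 0.00737% did.

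The day 14 array of MET_KO_canertinib was the highest of the 16 for 4 of the 10 genes (Fos 891, Myc 501, Ier3 3248 and Dusp1 2202) and for 14.7% of all genes. The same array had the highest summed signal of 11 measured neutrophil markers (of 12 listed, S100a8, S100a9 and Lcn2 among them), at 131041. The other canertinib arrays had 15089 to 73753, and those without canertinib 3307 to 46940. Cxcr2 was under the array median on every array. In canertinib arms against arms without it, 7 of 9 neutrophil markers tested were called higher and none lower, with a median of 0.96 against 0.144 for all genes, of which 24% were called higher. Of 6 lymphocyte markers tested, 4 were called higher and none lower (median 1.08). Neither list had a called marker in the model with the array set, where the medians were 1.01 and -0.03. The day 14 array of MET_KO_canertinib also had the highest summed signal of lymphocyte (5166), stellate cell (19394) and cholangiocyte (1634) markers. The part of these cell types in the Ier3, Fos, Myc and Dusp1 signals was not tested.

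**Figure D3:**
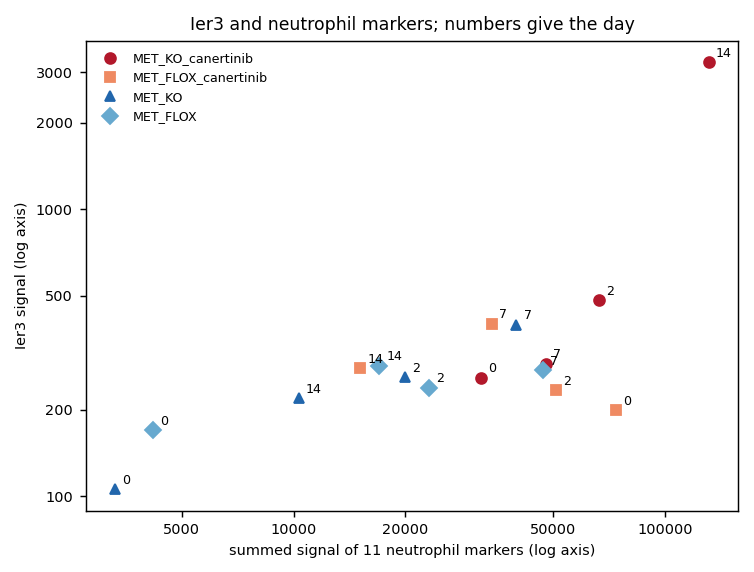
Ier3 signal against the summed signal of 11 neutrophil markers (both log axes), 1 point per array, with the day written beside it. MET_KO_canertinib at day 14 stands at 3248 and 131041, and the other 15 arrays lie at or under 483 and 73753.

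Dusp1 encodes a phosphatase for p38, JNK and ERK and is itself an immediate-early gene. Its signal was 521, 985, 750 and 2202 at days 0, 2, 7 and 14 in MET_KO_canertinib, and 1861, 1032, 1568 and 856 in MET_FLOX_canertinib. MET_KO gave 1778, 1185, 1603 and 752, and MET_FLOX gave 1103, 574, 1279 and 1018. Days 0 and 7 held the 2 lowest Dusp1 signals of MET_KO_canertinib and the 2 highest of each other arm. The canertinib difference was 0.01 (95% interval -0.60 to 0.62, limma adjusted p = 0.984), and it was -0.20 with arrays centred on their medians.

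Dusp6 encodes the phosphatase specific to ERK, whose transcript is widely read as a measure of ERK activity. It gave 685, 610, 673 and 862 at days 0, 2, 7 and 14 in MET_KO_canertinib, and 727, 731, 1013 and 849 in MET_FLOX_canertinib. In MET_KO it gave 839, 1324, 788 and 903, and in MET_FLOX 870, 1304, 664 and 476. Day 2 thus held the highest Dusp6 signal of each arm without canertinib, and of neither arm with it. At day 2 both canertinib arrays lay below both others, which was so of 24.1% of all genes, by a mean of -0.96. The day 2 array minus the mean of days 0, 7 and 14 was lower in MET_KO_canertinib than in MET_FLOX, by a log2 difference of -1.25 (SE 0.51, 95% interval -2.36 to -0.13, limma adjusted p = 0.947). That comparison called 0 of 13575 genes with limma, while 678 (4.99%) had an unadjusted p below 0.05, Dusp6 alone among the 10.

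**Figure D4:**
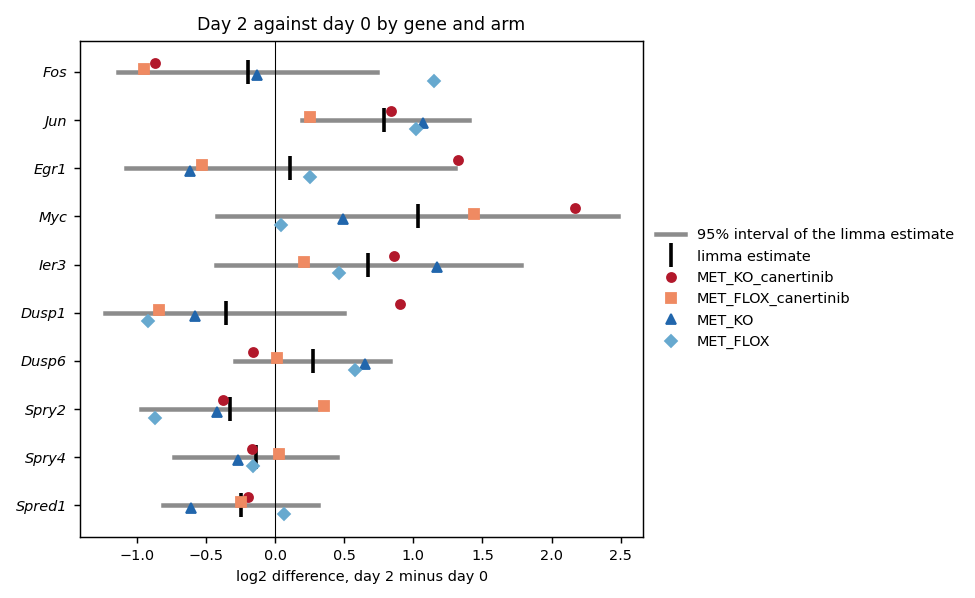
Log2 difference of day 2 minus day 0 for each gene, with a symbol for each arm, a black bar for the limma estimate over the 4 arms and a grey bar for its 95% interval. Jun, Myc and Ier3 lie above 0 in 4 of 4 arms, and Dusp6 stands at 0.65 in MET_KO and 0.58 in MET_FLOX against -0.16 in MET_KO_canertinib and 0.01 in MET_FLOX_canertinib.

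Spry2 and Spry4 encode Sprouty proteins, inhibitors of receptor tyrosine kinase signalling. Spry4 gave 638, 566, 471 and 710 at days 0, 2, 7 and 14 in MET_KO_canertinib and 555, 568, 773 and 482 in MET_FLOX_canertinib. It gave 350, 289, 405 and 899 in MET_KO and 357, 317, 285 and 549 in MET_FLOX. The 6 arrays of the low-median set held its 6 lowest signals, at 285 to 405, and the other 10 stood at 471 to 899 with or without canertinib. The share of all genes that split by array set in this way was not computed. Spry4 was 1.45-fold higher in canertinib arms, a log2 difference of 0.54 (SE 0.20, limma adjusted p = 0.0476), with 0.73, 0.87 and 0.80 at days 0, 2 and 7 and -0.26 at day 14. It was 0.33 (adjusted p = 0.159) with arrays centred on their medians and 0.23 (adjusted p = 0.347) after quantile normalization. Leaving out 1 array at a time gave 0.43 to 0.68, and the adjusted p stayed under 0.05 only without 1 of the 4 day 14 arrays. Of its other 3 probe sets, all near or under the array medians, 2 gave 0.38 and 0.54 and the third gave -1.15.

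Spry2 gave 338, 255, 250 and 349 at days 0, 2, 7 and 14 in MET_KO_canertinib, and 243, 314, 239 and 247 in MET_FLOX_canertinib. It gave 231, 169, 184 and 342 in MET_KO and 260, 135, 231 and 475 in MET_FLOX. At days 2 and 7 both canertinib arrays lay above both others, as they did for 44.6% and 40.7% of all genes. The day 14 array of MET_FLOX was the highest of the 16. The canertinib difference was 0.21 (SE 0.21, limma adjusted p = 0.444), 0.01 with arrays centred on their medians, and -0.20 after quantile normalization. Another Spry2 probe set, above the array median on 3 of 16 arrays, gave 0.06. At day 7 its signals overlapped, at 151 and 70 with canertinib against 191 and 147 without it. At day 2 they were 298 and 59 with canertinib, against 59 and 42 without it.

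Spred1 encodes a membrane-bound inhibitor that brings neurofibromin to RAS. Its signal was 1081, 942, 1099 and 767 at days 0, 2, 7 and 14 in MET_KO_canertinib and 1011, 848, 722 and 1073 in MET_FLOX_canertinib. MET_KO gave 863, 561, 534 and 1236, and MET_FLOX gave 453, 471, 523 and 1114. Canertinib arrays lay above the others at days 0, 2 and 7 (37.2%, 44.6% and 40.7% of all genes did) and below them at day 14 (19.7% of all genes did). The difference over the 4 days was 0.47 (SE 0.19, limma adjusted p = 0.0621), and 0.26 with arrays centred on their medians. It rests on 1 of 8 Spred1 probe sets: the other 7 gave -0.64 to 0.04, and the mean over the probe sets that passed the filter was -0.23.

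By day, the canertinib arrays lay above both others for Fos, Ier3, Spry4 and Spred1 at day 0 (4 of 10, against 37.2% of all genes), and below them for Myc and Dusp6 (22.9% of all genes). At day 7 Jun lay below (23% of all genes did), at 506 and 977 against 1322 and 978. At day 14, with all arrays in the high-median set, Jun and Egr1 lay above (21.5% of all genes did). The arrays of day 14 were not matched in the Gapdh 3′ to 5′ ratio. It was 1.13 in MET_KO_canertinib and 2.24 in MET_FLOX_canertinib, against 0.811 in MET_KO and 0.811 in MET_FLOX at that day. There Egr1 stood at 1890 and 2123 with canertinib, against 544 and 417 without it, a difference of 2.03 (SE 0.66, limma adjusted p = 0.222 with the array set as a term). Ier3 differed by 1.88 at day 14 (SE 0.66, adjusted p = 0.249), with 3248 and 279 against 220 and 285, so that only the MET_KO_canertinib array was high.

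Knockout arms against flox arms showed no called member and no called gene (0% of 13575 with limma, and 323 genes, 2.38%, at an unadjusted p below 0.05). None of the 10 had an unadjusted p below 0.05. Fos had the largest estimate, at 0.61 (95% interval -0.06 to 1.27), and Dusp6 had 0.03 (95% interval -0.37 to 0.42).

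Across the 16 arrays the genes fell in with different partners, described here by Pearson's r between log2 signals of arrays that share arms, days and sets. The probe sets read for Spry2, Spry4 and Spred1 went together. Their r was 0.66 between Spry2 and Spry4, 0.66 between Spry2 and Spred1 and 0.68 between Spry4 and Spred1. On the low-median set Spry2, Spry4 and Spred1 ran at 135 to 260, 285 to 405 and 453 to 863. On the high-median set they ran at 239 to 475, 471 to 899 and 722 to 1236. The part of the array set in these r values was not tested. The other Spred1 probe sets differed from the one read in the canertinib difference. Egr1 and Dusp1 had 0.67. Dusp6 ran against Spry2 at -0.69, and Myc against Spred1 at -0.66. Of all genes tested, those most like Ier3 were Icam1 (0.936), an adhesion molecule for leukocytes, Cd14 (0.919), the endotoxin co-receptor, and S100a8 (0.918), a neutrophil alarmin. Ier3 stood at 3248 in MET_KO_canertinib at day 14 and at 106 to 483 on the rest of the arrays. Its r values lean on that array, and r without it was not computed. Egr1 was most like Epas1 (0.912), Fos most like Ptrhd1 (0.871), Jun most like Golm1 (0.781) and Myc most like Rpn2 (0.84). The closest to Dusp1 was Cabin1 (0.805), to Dusp6 Vps26a (0.796), to Spry2 AI463170 (0.911), to Spry4 Trp53bp1 (0.932) and to Spred1 Gzmn (0.929).

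Other genes of the pathway were also called in the comparison of canertinib arms with arms without it, read against the same 24% higher and 10.6% lower over all genes. Of 10 other feedback genes tested, 4 were called higher and none lower (median 0.38, against 0.144 for all genes). With arrays centred on their medians the calls were Dusp2 and Etv5, after quantile normalization Dusp2 alone, and none in the model with a term for the array set. Dusp2, a nuclear phosphatase for ERK, had 1179, 987, 981 and 1505 in MET_KO_canertinib, 915, 879, 1143 and 978 in MET_FLOX_canertinib, 467, 259, 673 and 1254 in MET_KO, and 533, 408, 642 and 1206 in MET_FLOX. It rose by 0.79 (SE 0.19, limma adjusted p = 0.00828), with -0.02 at day 14, where the arms overlapped. Etv5, an ETS factor downstream of ERK, rose by 0.76 (SE 0.19), Spry1 by 0.51 (SE 0.13) and Dusp7 by 1 (SE 0.32), each above 0 at 4 of 4 days. At day 14 their differences were 0.17, 0.33 and 0.08, and the arms overlapped for Etv5 and Dusp7. For Spry1 both canertinib arrays lay above both others at that day, as they did for 21.5% of all genes.

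Of 20 other immediate-early genes tested, 2 were called higher and none lower (median 0.24). Egr3, a relative of Egr1, gave 876, 974, 1063 and 1096 in MET_KO_canertinib and 1390, 1244, 887 and 955 in MET_FLOX_canertinib. MET_KO gave 314, 340, 361 and 779, and MET_FLOX gave 608, 230, 338 and 828. The lowest signal with canertinib was thus 876 and the highest without it 828, a separation whose share over all genes was not computed. Without canertinib the highest Egr3 signals, 779 and 828, were those of day 14. Taken by day, both canertinib arrays lay above both others for 37.2%, 44.6%, 40.7% and 21.5% of all genes at days 0, 2, 7 and 14. Egr3 rose by 1.25 (SE 0.22, limma adjusted p = 0.00275), with 0.34 at day 14, and Mcl1, a survival gene, rose by 0.64 (SE 0.13, adjusted p = 0.00403), with 0.76 at day 14. Both were called after centring and after quantile normalization too, when Ccn1 was called lower, and neither was called with the array set as a term.

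In the cascade between receptor and ERK, 5 of 20 genes were called higher and 3 lower (median -0.06). Braf, the RAF kinase, rose by 0.60 (SE 0.11, limma adjusted p = 0.00324), Elk4 by 0.62, and Gab1, a docking protein for MET, by 0.57. Grb2, the adaptor that recruits SOS, fell by 0.56 (SE 0.15, adjusted p = 0.012). With arrays centred on their medians 1 was called higher and 6 lower, Braf and Grb2 keeping their direction and their call. None was called in the model with the array set, which called 4 higher and 11 lower of all genes. At day 14 the differences were 0.74 for Braf, 0.89 for Elk4, 0.57 for Gab1 and -0.69 for Grb2.

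Among 9 genes known as targets of MYC or AP-1, Ccnd1, the cyclin that growth factors induce, was called higher at day 2 than at day 0, by 1.87 (SE 0.28, limma adjusted p = 0.0127), in 4 of 4 arms. It stood at 2124 and 5404 at day 2 with canertinib, in MET_KO_canertinib and MET_FLOX_canertinib, against 8099 and 6256 in MET_KO and MET_FLOX. Odc1, the first enzyme of polyamine synthesis, had 1563 and 1818 at day 2 with canertinib against 6086 and 6309 without it. Its day 2 response was lower in MET_KO_canertinib than in MET_FLOX by -2.14 (SE 0.65, limma adjusted p = 0.946). With canertinib against without it, Cad was called higher (0.69) and Npm1 lower (-0.49). Of 6 heat shock genes, Hsp90aa1 (-0.64) and Hspa1b (-0.79) were called lower in that comparison and none higher. None of the genes of these lists was called for canertinib in the model with the array set. At day 14 the differences of Hsp90aa1 and Npm1 were 0.09 and 0.14, and those of Hspa1b and Cad, which kept their direction, were -0.48 and 0.2.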

How the data were processed

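Liver RNA of 16 samples, 6 ug of total RNA each per the labels, was read on 16 arrays. The deposited values are 1 linear signal intensity for each probe set, made by the authors with MAS5 per the submitters' processing notes, with no version given. The mean of each array was 500 once the 2% lowest and the 2% highest were dropped. Detection calls were not used here, and the number of arrays limits the precision.

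Of 45101 probe sets, 64 controls were left out, 34945 named 1 gene in the platform annotation, 932 named several and 9160 none. Those with 1 gene, above their array's median on at least 4 of 16 arrays, were kept, and a gene was read from its probe set of highest mean (13575 genes). The log2 of the signal plus 16 was fitted in R 4.3.3 by limma 3.58.1 on arm and day (9 residual degrees of freedom), with an intensity trend in the moderated variances. The day 2 response had 6. Genes with a two-sided Benjamini-Hochberg adjusted p below 0.05 over all genes were called. The fit was tested on simulated data with independent noise, a capped spread and no array sets. That test does not show how the fit handles the structure of these arrays.

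The members, the gene lists, the tests and the rule for naming genes were chosen with earlier results of these data known. The text names all members and, per list and comparison, up to 4 called genes with the smallest p, or up to 2 with none called, plus the genes closest to each member by r. Markers are named as examples, and Ccn1 was named after its values were seen. Alternatives were centring, quantile normalization, pseudocounts of 1 and 64, no filter, no trend, the array set as a term, the mean over probe sets, and leaving out each array.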

Additional observations from a re-analysis of the deposited data

Results flagged for a closer look

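In 2 of 40 groups of 4 arrays, 1 gene in 1 arm each, a single array stood apart from the other 3 by more of the range than Dixon's 95% limit for 4 values, which chance passes in about 1 of 20 groups. Spred1 gave 1114 in MET_FLOX at day 14, against 453 to 523 at the other days of that arm (a gap of 0.842 of the range). That array is the only one of its arm in the high-median set. Spry2 gave 314 in MET_FLOX_canertinib at day 2, against 239 to 247 at the other days (0.88 of the range). The days of an arm are different time points, so neither is a departure among replicates.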

How the results depend on the processing

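Of the 10 comparisons, 7 had 0 members called under every alternative that could be fitted. For canertinib arms against arms without it, the 1 member called became 0 with arrays centred on their medians, after quantile normalization, with no filter on low signals, without the intensity trend, and in the model with a term for the array set. Leaving out 1 array at a time gave 0 to 3 members. There were 3 (Myc, Spry4 and Spred1) without the day 14 array of MET_KO_canertinib, and 2 (Spry4 and Spred1) without that of MET_KO or of MET_FLOX. MET_KO_canertinib against MET_FLOX ranged over 0 to 1 members, with Spred1 called when the day 14 array of MET_KO_canertinib was left out. MET_FLOX_canertinib against MET_FLOX had 1 member, Egr1, with a pseudocount of 64 (adjusted p = 0.0486) and with the mean over probe sets of each gene (adjusted p = 0.0485). Leaving out 1 array there gave 0 to 1, with Egr1 called without the day 14 or day 0 array of MET_KO or the day 14 array of MET_KO_canertinib, and Spry4 without the day 14 array of MET_FLOX_canertinib.

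In the model with the array set, the difference between both canertinib arms and both others is the day 14 difference alone, by construction. Differences between pairs of arms add genotype and interaction terms from all 4 days to it. They need not match the difference seen at any day. Spry4 then turned to -0.26 and Spred1 to -0.36 for canertinib arms against arms without it, to -0.12 and -0.15 for MET_KO_canertinib against MET_FLOX, and to -0.13 and -0.24 for MET_FLOX_canertinib against MET_FLOX. The mean over probe sets gave Spred1 -0.23 and -0.33 in the first and the second of these, where its other probe sets enter. For canertinib arms against arms without it, Myc turned to 0.77, Dusp6 to 0.37 and Spry2 to -0.44 in the model with the array set, none of them called either way. The model with the array set called 15 of all genes for canertinib, against 4701 without the term. Calls over all genes for canertinib ran 3258 higher and 1443 lower as deposited, 1805 and 2713 after centring, and 1456 and 1368 after quantile normalization. MET_KO_canertinib against MET_FLOX had 239 higher and 156 lower, then 133 and 481, then 39 and 86. MET_FLOX_canertinib against MET_FLOX had 555 and 367, then 249 and 784, then 157 and 238, and MET_KO_canertinib against MET_KO had 805 and 327, then 364 and 862, then 145 and 165. The day 2 response could not be fitted without the day 2 array of MET_KO_canertinib or of MET_FLOX. Day was a term in every fit, so arms were matched by day, and the labels give no replicate numbers to pair arrays further. Low signals limit Myc, which lay under the array median on 8 of 16 arrays.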
